A study of Mus musculus with 108 samples.

Results

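The nuclear pore and mRNA export genes examined here are 31 mouse genes. They encode 30 proteins of the nuclear pore complex and its edges and Nxf1, the mRNA export receptor. They were taken from a list of symbols, and all 31 were matched to 1 Ensembl ID each among the 55573 gene IDs in the count files. The pore is built from rings of proteins called nucleoporins that sit where the inner and outer nuclear membranes fuse. A finished mRNA is handed to the export receptor and passes through a central channel lined with disordered repeats. At the cytoplasmic face a helicase with its activator Gle1 strips the export proteins off. In a fully grown oocyte the pores sit in the envelope of the germinal vesicle, the large nucleus that breaks down when meiosis resumes, and the egg at MII has no nuclear envelope.

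RNA was measured in single mouse oocytes. The females either carried an Exosc10 knockout restricted to the oocyte (cKO) or were controls. Exosc10 is a ribonuclease of the nuclear RNA exosome. The stages were GV (germinal vesicle intact), GV3h (3 hours of culture in M2 medium) and MII (eggs taken from the oviduct). PolyA libraries were made from RNA captured on oligo(dT) beads, so they register RNA that carries a poly(A) tail. RiboMinus libraries were made with random primers and without selection for a tail. Gene counts came from 64 polyA oocytes of 16 females and 22 RiboMinus oocytes of 7 females, 86 libraries in all. In the polyA libraries the GV groups held 15 cKO and 7 control oocytes of 2 females each, and the GV3h groups held 11 and 8 oocytes of 3 females each. The MII groups held 15 and 8 polyA oocytes of 3 females each. RiboMinus oocytes numbered 7 cKO and 8 control at GV, from 2 females each. At RiboMinus MII there were 4 cKO oocytes of 2 females and 3 control oocytes of 1 female, so female and genotype cannot be told apart there. The Cre line, strain and age are not given in the sources used here. Oocytes of 1 female were summed, and the female was the replicate in the tests, apart from alternatives named as using single oocytes.

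Total gene counts per oocyte ranged from 4638718 to 8735914 in polyA libraries and from 12319658 to 62675760 in RiboMinus libraries. Exosc10 reached at most 8.29 CPM in any cKO oocyte and was at least 43.0 CPM in any control oocyte, as the labels say. CPM here is the count scaled to the library's TMM size, the usual unit of edgeR, and scaling was done separately for the 2 library types. The 10 oocyte markers were detected in every group, with the lowest sum of any oocyte at 6754 CPM. The 10 granulosa or cumulus markers summed to at most 126 CPM in any oocyte, and blood markers to at most 13.8 CPM. No spike-in line was in the gene files, so each level is a share of its own library and not an amount per oocyte.

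At GV the members were all detected, and their levels spanned a wide range. Per kb of coding length, the control polyA GV level ran from 256 CPM for Sec13 down to 1.26 CPM for Nup210, a membrane nucleoporin. Sec13, shared between the outer ring and the coat of transport vesicles, was at 236 and 258 CPM in the 2 females before length was taken into account. Nup37, a small outer ring protein, came next per kb with 162 CPM, and Rae1, the partner of Nup98 in mRNA export, followed with 127 CPM. Nup98 itself, a channel nucleoporin, was at 124 CPM per kb, and Nup88 of the cytoplasmic face at 106. Low levels were found in several roles. In the inner ring Nup205 was at 5.81 CPM per kb, Nup155 at 9.86, Nup188 at 22.0 and Nup93 at 39.1. Nup133 of the outer ring was at 10.3, Ranbp2 of the cytoplasmic side at 12.8 and the anchor Pom121 at 20.2. In each other role the best represented gene per kb was Nup35 (62.1 CPM) in the inner ring and Ndc1 (32.9 CPM) among the membrane anchors. The same place was held by Nup62 (77.1 CPM) in the central channel, and by Nup50 (89.1 CPM) in the basket. Nxf1 was at 50.3 CPM per kb. These levels are TMM-scaled CPM over coding length, so untranslated sequence and priming near the 3′ end also enter them, and order between close neighbours was not tested.

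**Figure D1:**
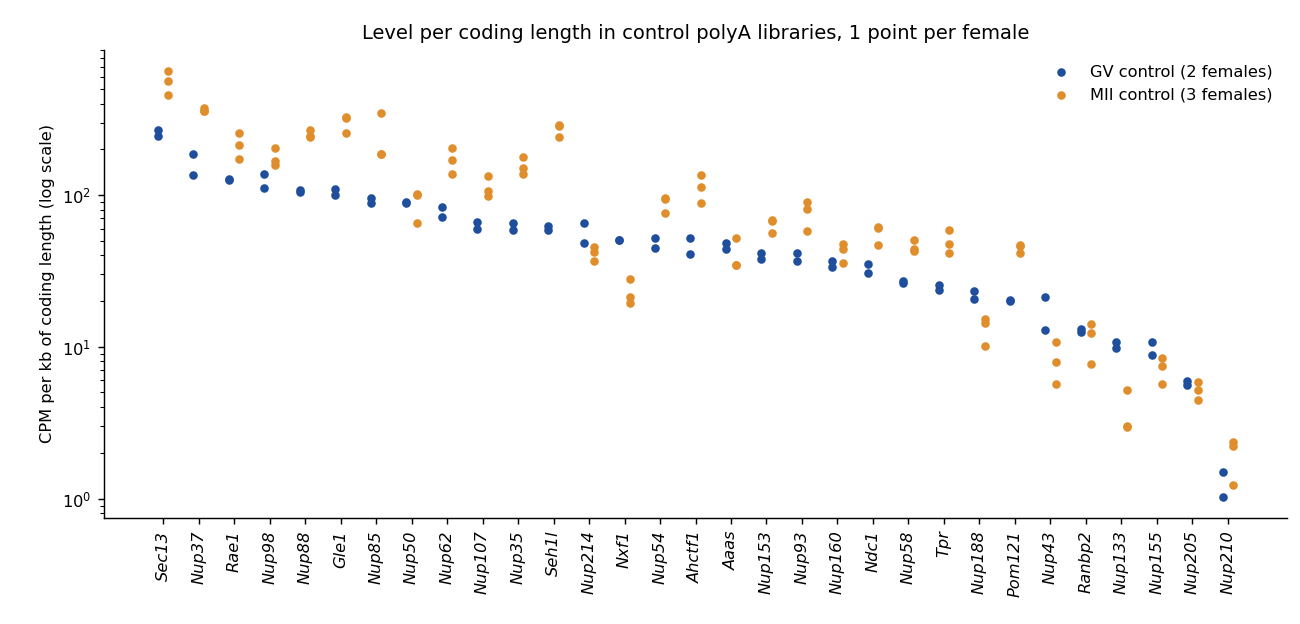
CPM per kb of coding length (log scale) of the 31 genes in control polyA libraries, 1 point per female, ordered by the GV mean from Sec13 (256) to Nup210 (1.26). Blue points are the 2 GV females and orange points the 3 MII females; most orange points lie above the blue ones.

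The change from GV to MII asks how the transcripts of the pore stand in eggs that have passed through meiotic maturation. In polyA libraries most members were higher in eggs. In control oocytes 19 of 31 were called higher at MII (edgeR quasi-likelihood test, Benjamini-Hochberg adjusted p under 0.05), against 16.8% of all 19242 genes tested. Another 5 were called lower, against 25.7% of all genes. In cKO oocytes 19 were called higher, against 18.1% of all genes, and 4 lower, against 26.6%. The median log2 change of the members was 0.77 in controls and 0.78 in cKO oocytes, and that of all genes was -0.26 and -0.33. Of the 19 members called higher in controls, 17 were also called higher in cKO oocytes, 89.5% of each list. Over all genes the shared share was 78.4% of the control list and 72.6% of the cKO list. The 2 genotypes share no female. Nup58 and Rae1 were called in controls alone, and Nup160 and Nup205 in cKO oocytes alone. No member was called in the test of the difference between genotypes (GV to MII interaction), where 1.94% of all genes were called and 4 members had an unadjusted p under 0.05.

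The sum of the 31 genes showed the same shift in each oocyte. It was 4392 to 4643 CPM in control GV oocytes and 4084 to 4855 CPM in cKO GV oocytes. In eggs it was 7127 to 8519 CPM in controls and 7343 to 8544 CPM in cKO, with no overlap between stages. The choice of scaling set part of the size. When library totals were used for scaling, the median change of all genes shifted by -0.43 in controls and -0.52 in cKO oocytes. The members were then called 14 higher and 9 lower in controls and 15 higher and 8 lower in cKO oocytes. Over all genes 9.30% were then higher and 34.3% lower in controls, and 9.75% and 38.9% in cKO oocytes. The rises lost in controls were those of Ndc1, Nup58, Rae1, Nup98 and Nup153, and in cKO oocytes those of Nup160, Nup205, Nup153 and Tpr. Among all genes called in controls, the higher ones made up 39.5% with TMM and 21.4% with library totals, and in cKO oocytes 40.5% and 20.05%. The summed level with library totals was 4627 to 4824 CPM in control GV oocytes and 5895 to 6580 CPM in control eggs. Other values moved with stage in the polyA libraries. Reads outside annotated genes made up 9.88% to 14.2% of a library at GV and 5.85% to 6.77% at MII. The granulosa or cumulus marker sum was 35.95 to 65.6 CPM in control GV oocytes and 65.0 to 126 CPM in control eggs, where 5 of its 10 markers (Foxl2, Fshr, Amhr2, Inha and Hsd17b1) were at 0. In cKO oocytes it was 11.2 to 52.9 CPM at GV and 56.9 to 115.5 CPM in eggs, with Amhr2 and Ptx3 at 0. Mitochondrial genes held 0.22% to 0.59% of the counts at polyA GV and 0.63% to 1.29% at MII. The oocyte marker sum was 16460 to 21630 CPM at GV and 21860 to 27230 CPM at MII in cKO oocytes, and overlapped between the stages in controls. The part of these in the stage change was not tested.

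**Figure D2:**
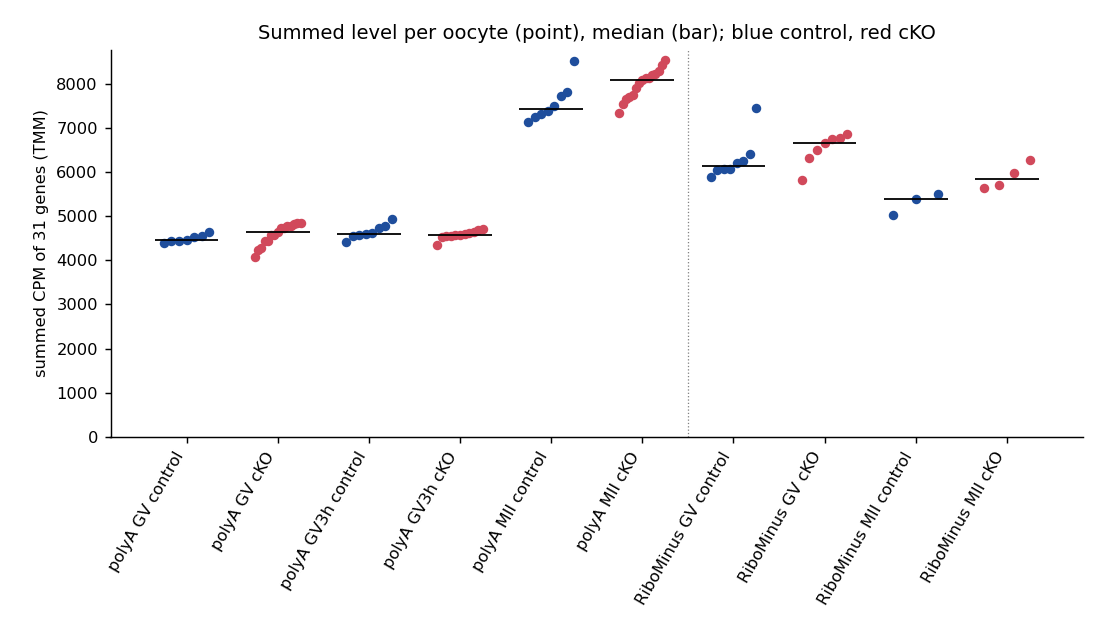
Summed CPM (TMM) of the 31 genes in each oocyte (points) with the group median (bar), polyA groups to the left of the dotted line and RiboMinus groups to the right. The polyA eggs, from 7127 to 8544 CPM, lie above all polyA GV and GV3h oocytes, while RiboMinus eggs, from 5019 to 6282 CPM, lie below or in the lower part of the range of the RiboMinus GV oocytes.

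The outer ring, or Y complex, is the scaffold that coats both faces of the pore, and 6 of its 9 members were called higher in control eggs and 7 of 9 in cKO eggs. Seh1l, a Y complex protein also found in a nutrient-sensing complex of the lysosome, changed most in controls. It was at 67.0 and 63.8 CPM in the 2 control GV females and at 308, 313 and 261 CPM in the 3 MII females. The egg females were all far above the GV females, and the fold was 4.5 (log2 2.17 ± 0.20 SE, edgeR adjusted p 3.52e-07). In cKO oocytes Seh1l went from 87.3 and 78.5 CPM to 165, 202 and 207 CPM, a log2 change of 1.21 ± 0.19. The interaction for Seh1l was -0.96 ± 0.26 with an adjusted p of 0.0738, which misses the threshold. DESeq2 and 4 of the other alternatives, among them single oocytes as replicates and library totals, did call it. DESeq2 size factors, the compared groups alone and every fit that left out 1 female did not. Scaling by library totals gave 0 members above and 1 below 0 in this test, and the share of all called genes above 0 went from 81.8% to 68.9%.

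Nup85, another Y complex scaffold, was at 174 and 187 CPM in control GV females and at 678, 369 and 366 CPM in eggs. Female V836 stood above the other 2 egg females, and without it the log2 change of 1.39 ± 0.27 was 1.03 and still called. Nup37 went from 133 and 183 CPM to 368, 351 and 349.7 CPM in controls, and from 127 and 155 CPM to 351, 419 and 357 CPM in cKO oocytes. The females of the 2 stages did not overlap in either genotype, although single control oocytes did, and the log2 changes were 1.17 ± 0.18 and 1.41 ± 0.18. Ahctf1, which anchors new pores to chromatin when the envelope reforms, went from 276 and 350.0 CPM to 913, 754 and 595 CPM in controls. Its cKO females were at 364 and 449 CPM at GV and at 868, 963 and 1088 CPM at MII. Sec13 rose from 236 and 258 CPM to 632, 542 and 442 CPM in controls. Nup107 also rose in both genotypes, by 0.84 ± 0.14 and 1.18 ± 0.14 on the log2 scale.

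The other outer ring genes moved the other way or little. Nup133, at the tip of the Y, fell in both genotypes. It was at 37.5 and 34.2 CPM in control GV females and at 18.03, 10.4 and 10.3 CPM in eggs, a log2 change of -1.48 ± 0.33 (edgeR adjusted p 0.00167). In cKO oocytes it stood at 60.6 and 24.1 CPM at GV, so the 2 females differed by more than 2-fold, and at 14.5, 12.2 and 18.8 CPM at MII. Without the GV female V857 its cKO change of -1.47 was -0.66 and not called. In the annotation 10.4% of the exonic bases of Nup133 overlap 2 other genes, most of all Gm29773 on the opposite strand, and such reads cannot be told apart without strand. Nup43 was also lower in control eggs, with a log2 change of -1.08 ± 0.28, and was not called without the GV female V889 (-0.64). Its cKO change of -0.73 was lost without any one of the 5 females. Nup160 was called in cKO oocytes alone (0.60 ± 0.22), and the call was lost without 4 of the 5 females.

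In the inner ring, which lines the pore at the membrane, Nup35 had the largest change in cKO oocytes. This small protein links the ring to the membrane. It was at 57.2 and 64.0 CPM in control GV females and at 134, 174 and 146 CPM in eggs, and at 39.7 and 40.1 CPM in cKO GV females and 138, 174 and 145 CPM in cKO eggs. The eggs of the 2 genotypes covered the same range while the cKO GV females lay below the control GV females. The log2 changes were 1.32 ± 0.17 (edgeR adjusted p 9.13e-06) and 1.93 ± 0.17 (3.35e-07), and the interaction of 0.61 ± 0.23 was not called (0.186). Nup93, which ties the ring to the channel, rose by 0.97 ± 0.17 in controls and by 1.15 ± 0.18 in cKO oocytes. Nup188, a large scaffold, fell by 0.73 in controls and by 0.95 in cKO oocytes on the log2 scale, and lost the call without 1 GV female in each genotype (V856 and V857). In addition 12.4% of its exonic bases overlap 2 other genes, most of all the opposite-strand gene Gm14471. Nup205, its relative, was at 34.9 and 37.0 CPM in control GV females and at 27.5, 36.1 and 32.3 CPM in eggs, which overlap. In cKO oocytes it was at 38.9 and 33.3 CPM at GV and 60.6, 44.8 and 53.1 CPM in eggs, and that call (0.55 ± 0.20) was lost without 4 of the 5 females and in 3 of 7 other settings. Nup155 was not called in either genotype.

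The membrane anchors Ndc1 and Pom121 rose in both genotypes. Ndc1, a protein that spans the membrane of the pore, was at 71.0 and 61.9 CPM in control GV females and at 94.3, 123 and 122 CPM in eggs. In cKO oocytes it went from 80.8 and 100.2 CPM to 179.9, 167 and 176 CPM. Each egg female was above each GV female of its genotype, with log2 changes of 0.77 ± 0.16 and 0.94 ± 0.16. Pom121 changed by 1.15 ± 0.17 and 1.17 ± 0.17. Nup210, the other anchor, was at 5.83 to 13.3 CPM in all control GV and MII females and was not called.

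The central channel is lined by repeat-bearing nucleoporins that act as the barrier and the track for transport receptors. Nup62 was at 131 and 112 CPM in control GV females and at 218, 323 and 269 CPM in eggs, and in cKO oocytes it went from 104 and 101 CPM to 237, 232 and 232 CPM. The log2 changes of Nup62 were 1.15 ± 0.20 and 1.19 ± 0.20. Nup54 rose with it, from 68.8 and 79.6 CPM to 144, 146 and 116 CPM in controls. Nup58 was at 41.7 and 43.1 CPM in control GV females and at 67.9, 81.0 and 70.3 CPM in control eggs, a change of 0.79 ± 0.19. Its counts are uncertain, since 58.4% of its exonic bases overlap 3 other genes, most of all Gm49336 on the same strand. Nup98 changed by 0.51 ± 0.14 in controls, a call lost without the GV female V856, and by 0.97 ± 0.14 in cKO oocytes. Rae1 went from 141 and 139 CPM to 282, 234 and 190.3 CPM in controls and from 162 and 189.8 CPM to 209, 208 and 238 CPM in cKO oocytes, where its change of 0.31 was not called.

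The cytoplasmic face split. Gle1 (chromosome 2, 29935426 to 29960371), the activator of the helicase that releases mRNA, was at 231 and 209 CPM in control GV females and at 680.5, 676 and 538 CPM in eggs. In cKO oocytes it went from 158 and 211 CPM to 484, 481 and 603 CPM. Neither females nor oocytes overlapped between stages, and the log2 changes were 1.52 ± 0.16 (edgeR adjusted p 1.32e-06) and 1.499 ± 0.16 (1.86e-06). Nup88 went from 243 and 236 CPM to 602, 553 and 542 CPM in controls, 2.36-fold (edgeR adjusted p 1.46e-06). In contrast, its binding partner Nup214, which docks the helicase, was at 408 and 301 CPM at GV and 264, 229 and 285 CPM in control eggs. The control change of -0.45 ± 0.16 for Nup214 was lost without any one of 3 females (V856, V836 or V853) and with DESeq2. Ranbp2, the large protein of the cytoplasmic filaments, was at 119.9 and 114 CPM in control GV females and 70.9, 114 and 130.3 CPM in eggs, and was not called, nor was Aaas.

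In the nuclear basket, which receives mRNA on the nuclear side, Nup153 and Tpr rose and Nup50 was not called. Tpr, the filament of the basket, went from 185 and 172 CPM to 302, 426 and 347 CPM in controls and from 208 and 152 CPM to 357, 273 and 299 CPM in cKO oocytes. Nup50 was at 123 and 126 CPM in control GV females and at 92.0, 143 and 140.1 CPM in eggs, with a change of 0.01. Nup153 rose by 0.70 ± 0.16 and 0.78 ± 0.16. The export receptor Nxf1 went the opposite way from most pore genes. It lies at 8757073 to 8770922 of chromosome 19 (mm10), and was at 93.7 and 93.0 CPM in control GV females and at 39.3, 52.0 and 36 CPM in control eggs. In cKO oocytes Nxf1 was at 140.5 and 123 CPM at GV and at 57.8, 65.5 and 75.8 CPM in eggs. Each egg female was below each GV female, with log2 changes of -1.13 ± 0.19 (edgeR adjusted p 0.000164) and -0.99 ± 0.19 (0.000538).

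**Figure D3:**
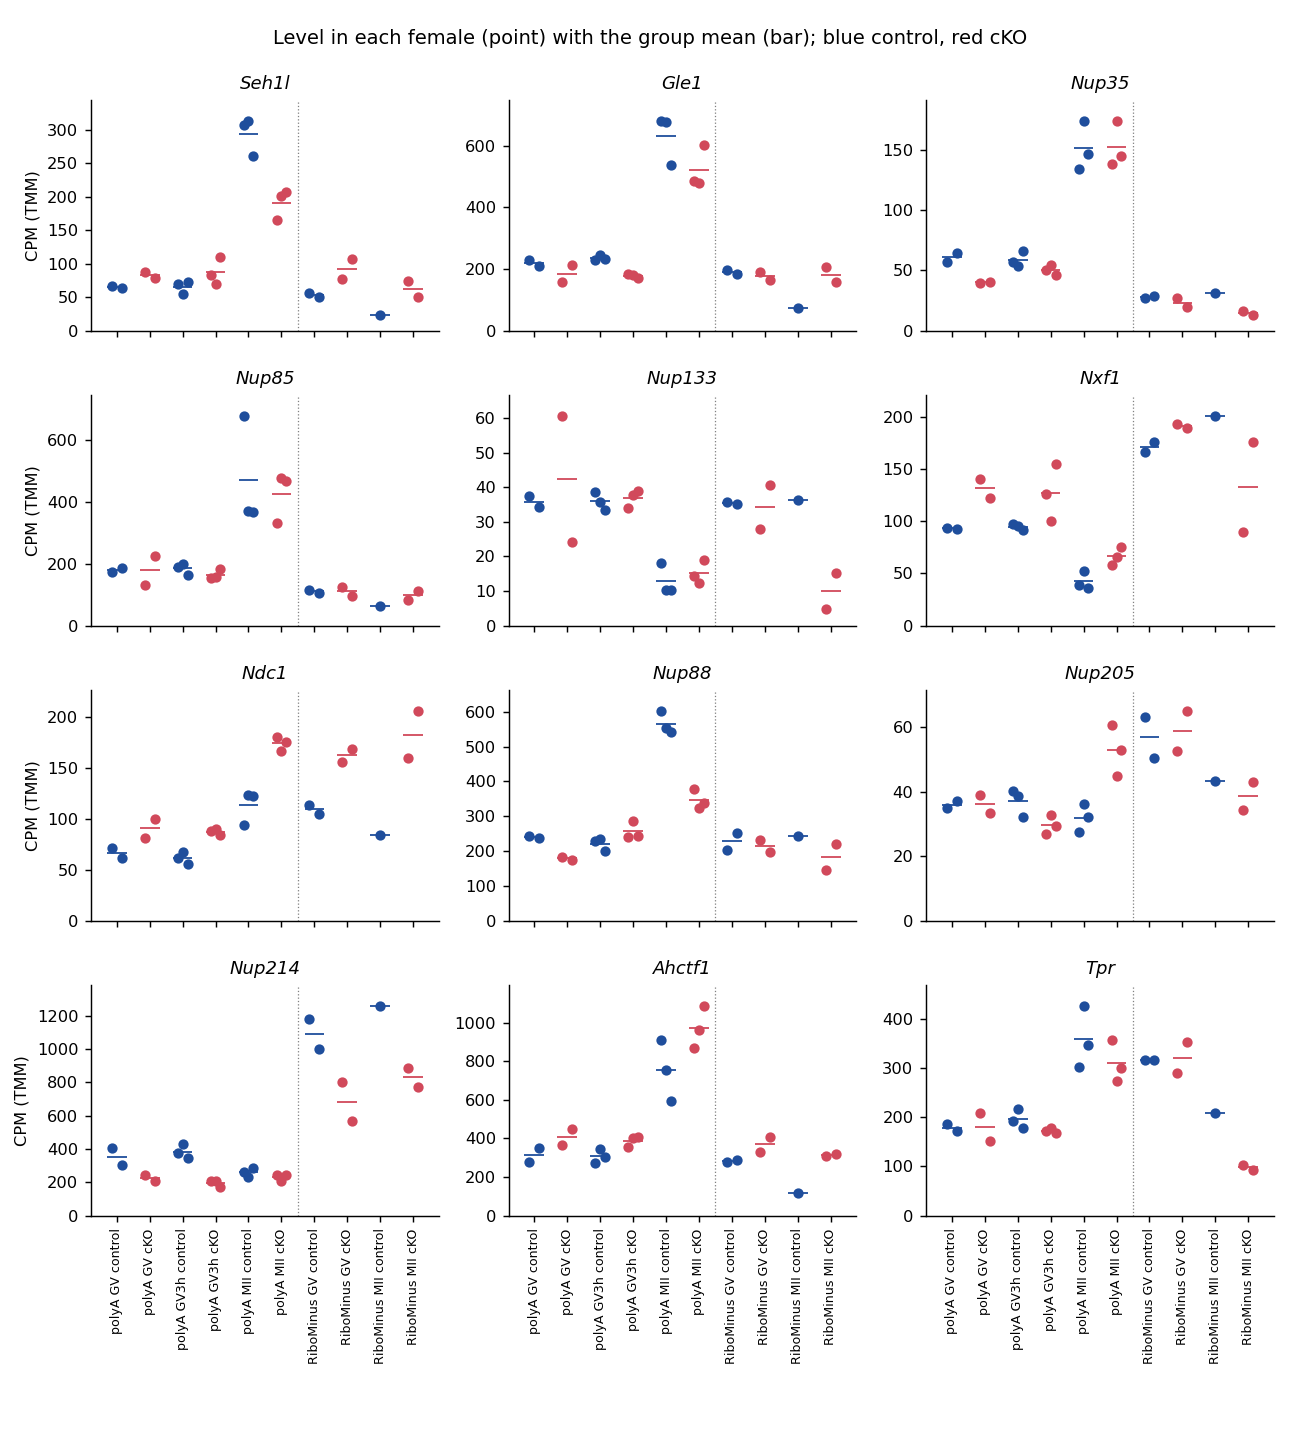
CPM (TMM) of 12 genes in each female (points) with the group mean (bar), blue for control and red for cKO, polyA groups left of the dotted line and RiboMinus groups right of it. Seh1l, Gle1, Nup35 and Nup85 stand higher in polyA eggs than at GV, Nup133 and Nxf1 stand lower, and none of the first 4 stands higher in RiboMinus eggs of both genotypes.

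In RiboMinus libraries, which do not depend on the tail, the edgeR fit of all RiboMinus females called 0 members higher at MII in either genotype. In controls 0 members were called between GV and MII, where 0.00787% of all 25425 genes tested were called. An unadjusted p under 0.05 was found for 7 members and for 3834 of all genes, and DESeq2 called 5, all lower at MII, where it called 3.60% of all genes lower. The fit of the compared groups alone called 11 members, all lower, and 13.9% of all genes lower. Single oocytes as replicates called 13 members, all lower, and 15.8% of all genes lower. In cKO oocytes 0 members were called higher, against 0.61% of all genes, and 2 were called lower, Tpr and Ranbp2, against 1.71%. Other fits of the cKO oocytes did call a member higher. Voom on single oocytes with the female as a random block called 1 higher and 6 lower, single oocytes as replicates 1 higher and 3 lower, and the fit without the cKO female V1167 also 1 higher and 6 lower. All genes were called higher and lower at 9.06% and 10.8%, 7.40% and 8.675%, and 2.88% and 4.73% in the same order. The median change of the members was -0.37 in controls and -0.23 in cKO oocytes, and that of all genes was -0.16 and 0.00. The RiboMinus control eggs are of 1 female (V1145), whose spread was taken to be like that of the other groups. The interaction of genotype and stage called 0 members and 0% of all genes, with an unadjusted p under 0.05 for 5 members and 3611 genes. DESeq2 called 1 member, Gle1, and 2.84% of all genes higher and 1.59% lower.

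Tpr was at 317 and 316 CPM in RiboMinus control GV females and at 208 CPM in the control egg female, and at 290.1 and 353 CPM in cKO GV females and 103 and 92.6 CPM in cKO eggs. Both cKO egg females lay far below both GV females, with a log2 change of -1.72 ± 0.21 (edgeR adjusted p 0.0174), the reverse of the polyA change. The call was lost without V1131 or V1166. Ranbp2 was at 129 and 209 CPM in cKO GV females and at 67.9 and 59.1 CPM in cKO eggs, a change of -1.41 ± 0.27 (0.0397), lost without V1131, V1166 or V1167. Leaving out 1 female at a time, the change lay between -1.85 and -1.57 for Tpr and between -1.72 and -1.03 for Ranbp2. Without V1131 or V1166 few genes of any kind were called. The genes with the largest polyA rises were not called higher. Gle1 was at 198 and 183 CPM in RiboMinus control GV females and 74.8 CPM in the control egg female, while cKO females were at 191 and 163 CPM at GV and 206 and 157 CPM at MII. Seh1l was at 55.7 and 50.03 CPM in control GV females and 23.5 CPM in eggs. Nup35 was at 26.7 and 28.9 CPM at GV and 31.5 CPM in control eggs, and at 26.8 and 19.4 CPM and 16.3 and 12.6 CPM in cKO oocytes. Nup133 was at 35.8 and 35.2 CPM and 36.4 CPM in controls, and in cKO oocytes at 27.8 and 40.8 CPM and 4.71 and 15.2 CPM.

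The difference between the library types was tested directly, in a single fit of all 23 females that was chosen after the data were seen. The control difference rests on the 1 RiboMinus MII control female, which could not be left out and was assumed to vary like the other groups. In controls the polyA change minus the RiboMinus change was called above 0 for 19 of 31 members, against 10.9% of all genes, and below 0 for 1, Nxf1, against 11.9%. In cKO oocytes it was above 0 for 20 members, against 11.6%, and below 0 for 0 members, against 9.17%. The median difference of the members was 1.29 in controls and 1.38 in cKO oocytes, and that of all genes 0.00 and -0.24. Gle1 differed by 3.04 ± 0.32 in controls (edgeR adjusted p 4.76e-07) and by 1.64 ± 0.26 in cKO oocytes. Seh1l differed by 3.503 ± 0.40 and 1.963 ± 0.33, and Ahctf1 by 2.71 ± 0.33 and 1.66 ± 0.28. Tpr differed by 1.78 ± 0.29 and by 2.68 ± 0.26, and Nup35 by 1.30 ± 0.32 and 2.79 ± 0.29. Ranbp2, which was not called in polyA (-0.16 and -0.22), differed by 1.48 ± 0.39 and 1.38 ± 0.33, with RiboMinus changes of -1.47 and -1.41. The joint fit had its own scaling, so its values need not equal the difference of the separate changes. Nxf1 in controls was the reverse, at -1.20 ± 0.39, a call lost without 6 of the 7 females that could be left out. The control call of Nup153 (0.83 ± 0.29) was also lost without 6 of these 7, and the cKO call of Pom121 (0.89 ± 0.30) without 5 of the 9 and in 5 of 7 other settings. The cKO call of Ndc1 (0.95 ± 0.25) was lost in 3 of 7 settings. Scaling by library totals left 11 members above and 3 below 0 in controls, and 9 above and 3 below in cKO oocytes. Over all genes it left 6.69% above and 17.0% below 0 in controls and 4.44% and 17.0% in cKO oocytes. It moved the median of all genes by -0.32 and -0.70.

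**Figure D4:**
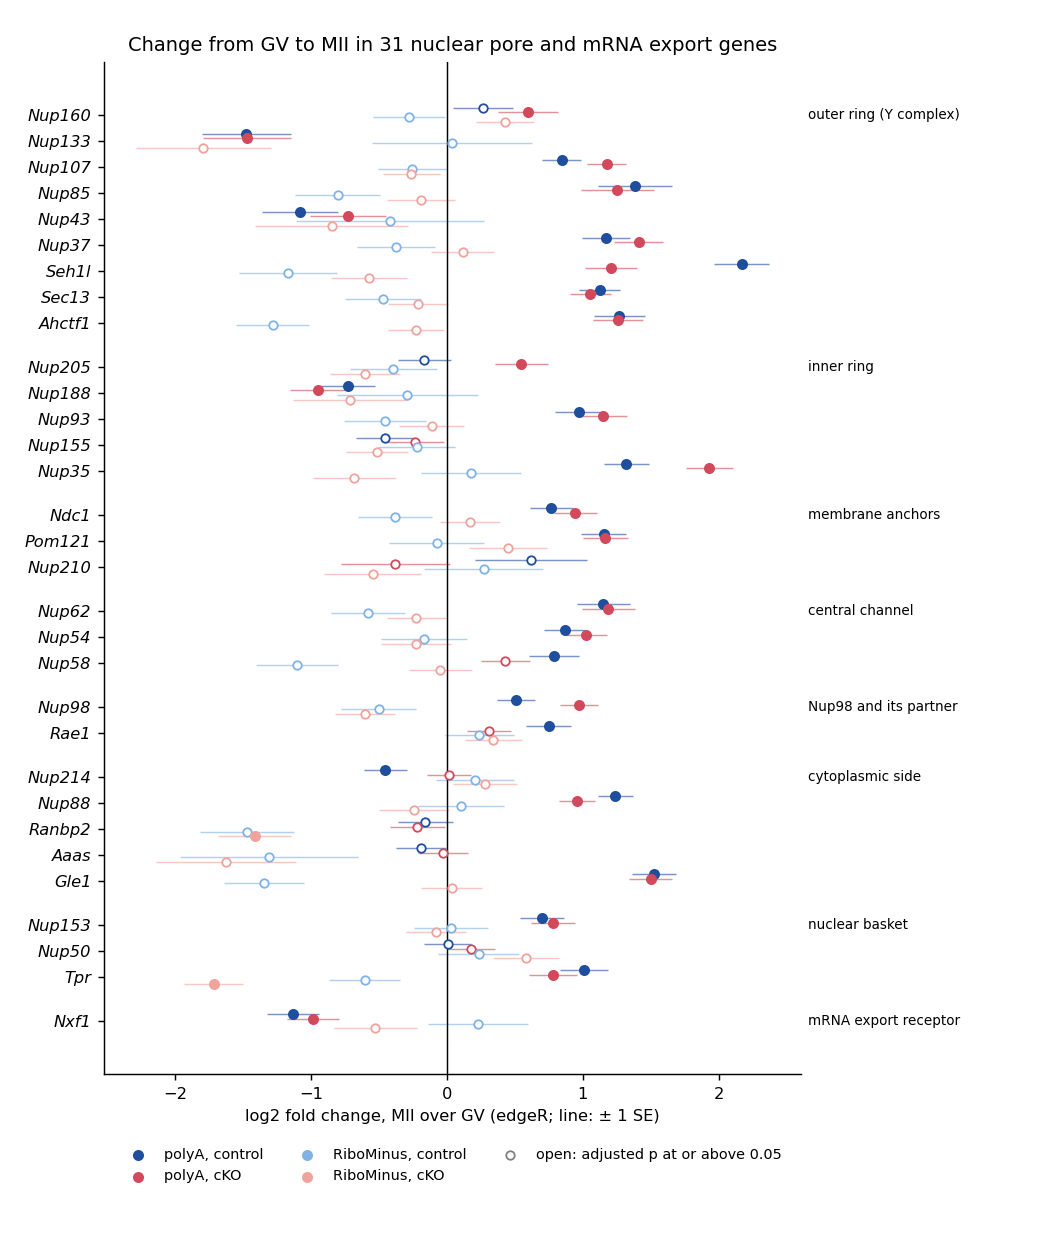
Log2 fold change from GV to MII (x axis, line ± 1 SE) of each of the 31 genes, grouped by role, in polyA (dark) and RiboMinus (pale) libraries of control (blue) and cKO (red) oocytes; filled points had an edgeR adjusted p under 0.05. Most dark points lie right of 0, up to 2.17 for Seh1l in controls, and most pale points lie at or left of 0.

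A poly(A) tail can be lengthened in the maturing oocyte on mRNAs that carry a cytoplasmic polyadenylation element (CPE), a U-rich motif read by CPEB1 near the AATAAA-type hexamer that positions cleavage. The last 100 bases of the annotated transcripts were read for TTTTAT or TTTTAAT on the sense strand and for AATAAA or ATTAAA (GENCODE M21, mm10). The CPE spelling overlapped a hexamer in 1 member, Nup98. Of the 27 members with a 3′ UTR of at least that length, 7 held a CPE spelling, 25.9%, and 24 held a hexamer, 88.9%, against 80.9% of all genes tested in polyA. Among all genes tested in polyA, 19.3% held a CPE spelling. The share was 32.4% of all genes called higher in control eggs and 10.2% of those called lower. Among the members it was 6 of 17 called higher in controls (35.3%) and 1 of 10 others (10.0%). Nup43, Aaas, Tpr and Nup58 were not searched. The matches are a description of the letters, and their part in the changes was not tested. Gle1 and Seh1l, which were among the largest rises, held no CPE spelling in this window. Nup62 and Nup98 held a CPE spelling and rose in both genotypes, and Rae1 held one and was called higher in controls alone. The sites of 4 other members are printed as examples. Of these, Nup35, Nup54 and Nup37 rose in both genotypes and Ranbp2 was not called in the polyA stage change. Capitals mark the CPE spelling and, in Nup35 and Nup54, the hexamer before it. All 4 lie in the 3′ UTR, at chr2:80658873-80658902 (+) for Nup35, chr5:92415542-92415571 (-) for Nup54, chr10:88178300-88178329 (+) for Nup37 and chr10:58494283-58494312 (+) for Ranbp2. Each is 5′ to 3′ as DNA letters.
Nup35: tccaAATAAActttgtcaatTTTTATgtgc
Nup54: aaAATAAAttgttaatttgtaaTTTTATgt
Nup37: aaaaatccttatTTTTATatcaaacatact
Ranbp2: tatgcaacttaTTTTAATtcctgttaagat

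The genotype comparisons ask which pore transcripts differ in oocytes without Exosc10. Few did, and in the polyA libraries the share of members called was near or below that of all genes. At polyA GV 0 members were called higher, against 3.47% of all genes, and 2 lower, Nup214 and Nup35, against 3.91%. At GV3h 1 was higher, against 12.5%, and 3 were lower, against 12.7%. At polyA MII 4 were higher, against 11.9%, and 2 lower, against 6.99%. At RiboMinus GV 0 were called, where 0.0315% of all genes were called. An unadjusted p under 0.05 was found there for 6 members and for 3727 of all 25425 genes, and DESeq2 called 0 members. At RiboMinus MII 4 were higher, against 3.61%, and 1 lower, against 3.69%. The member medians were -0.02, -0.07 and 0.01 in the polyA comparisons and 0.02 and 0.06 in the RiboMinus ones. All genes had medians of 0.08, 0.07, 0.12, 0.04 and 0.25 in the same order. Library totals changed the split at GV to 3 higher and 0 lower, at GV3h to 9 and 2, at MII to 6 and 2 and at RiboMinus MII to 5 and 0. Library totals called 5.48% of all genes higher in the GV comparison and 1.91% lower. The GV3h comparison had 18.4% higher and 7.67% lower, polyA MII 14.5% higher and 5.48% lower, and RiboMinus MII 4.55% higher and 2.35% lower. Among all called genes the higher share then went from 47.0% to 74.2% at GV and from 49.5% to 70.5% at GV3h, with the median of all genes moved by 0.19 and 0.23. At RiboMinus MII that share went from 49.5% to 65.9%, with a shift of 0.20.

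Ndc1 (chromosome 4, 107367784 to 107416346) was the member called in the same direction in the most comparisons, 3 of 5. In polyA GV3h it was at 87.6, 89.8 and 83.6 CPM in cKO females and 61.0, 67.1 and 55.9 CPM in controls. All cKO females lay above all controls, with a log2 difference of 0.51 ± 0.14 (edgeR adjusted p 0.0149), lost without V951 or V995. At MII it was 179.9, 167 and 176 CPM against 94.3, 123 and 122 CPM, a difference of 0.62 ± 0.14 (0.00631) that was called without any one female. At RiboMinus MII it was 159.5 and 206 CPM against 84.1 CPM, a difference of 1.12 ± 0.28 (0.0485). At GV the differences of 0.45 in polyA (80.8 and 100.2 against 71.0 and 61.9 CPM) and 0.57 in RiboMinus (156 and 168 against 114 and 105 CPM) were not called. The cKO females were above the controls in all 5 groups.

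Nup214 was lower in every cKO female than in every control female in 4 of the 5 groups. In polyA GV3h it was at 207, 207 and 174 CPM in cKO females against 373, 430.0 and 346 CPM in controls, so the groups were far apart. The log2 difference was -0.97 ± 0.15 (edgeR adjusted p 0.000322), called in every alternative run. At polyA GV it was 245 and 209 against 408 and 301 CPM, a difference of -0.65 ± 0.18 (0.0373), lost without any one of the 4 females. RiboMinus GV showed 801 and 566 against 1181 and 1000 CPM, and RiboMinus MII a mean of 831 ± 80.3 CPM (SD, n = 2) against 1259 CPM in the 1 control female, neither called. In polyA eggs the females overlapped, with 242, 205 and 241 against 264, 229 and 285 CPM. In the annotation 6.65% of its exonic bases overlap 4 other genes, most of all Gm16534 on the opposite strand.

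Of the other members, 11 were called in 1 or 2 groups and 18 in none. Nup54 in polyA GV3h was at 45.7, 54.7 and 46.4 CPM against 75.1, 71.8 and 74.4 CPM, a difference of -0.59 ± 0.13 called without any one female. The GV call of Nup35, -0.60 ± 0.18 (39.7 and 40.1 against 57.2 and 64.0 CPM), was lost without any one of the 4 females. The GV3h call of Gle1, -0.40 ± 0.14 (183, 181 and 171 against 228, 246 and 233 CPM), was lost without any one of the 6. In polyA eggs Nup88 was at 379, 324 and 339 CPM against 602, 553 and 542 CPM, a difference of -0.70 ± 0.11 (edgeR adjusted p 0.000747). Nup205 was at 60.6, 44.8 and 53.1 CPM against 27.5, 36.1 and 32.3 CPM, a difference of 0.72 ± 0.18. For both genes the cKO and control females were separate, and both were called without any one female. Seh1l was lower in cKO eggs, at 165, 202 and 207 CPM against 308, 313 and 261 CPM (-0.62 ± 0.17), and lost the call without V841 or V853. Nxf1 was higher, at 57.8, 65.5 and 75.8 CPM against 39.3, 52.0 and 36 CPM (0.64 ± 0.18), and lost it without V897, V836 or V896. Nup98 was higher by 0.38 ± 0.12, and lost it without any one of 4 females.

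At RiboMinus MII the controls were 1 female, and the size of each difference rests on it. Reads outside genes made up 8.43% to 9.56% of the cKO libraries and 11.2% to 12.0% of the control ones. The oocyte marker sum was 7900 to 10950 CPM in cKO and 12080 to 13110 CPM in control eggs. The part of these in the differences was not tested. Nup58 was at 94.2 and 77.8 CPM in cKO females against 30.6 CPM (1.49 ± 0.31, edgeR adjusted p 0.0300) and Ahctf1 at 310.4 and 319.5 CPM against 116 CPM (1.44 ± 0.27). Gle1 was at 206 and 157 CPM against 74.8 CPM (1.28 ± 0.29). Tpr was lower, at 103 and 92.6 CPM against 208 CPM (-1.09 ± 0.25). It was not called with library totals or with single oocytes as replicates. The cKO egg V1166_2 held 183.3 CPM of Tpr against 79.8 to 96.1 CPM in the other cKO eggs, and the oocyte ranges of the genotypes overlap. Nup58, Ahctf1 and Gle1 were not called in polyA eggs, where Gle1 was at 484, 481 and 603 CPM in cKO females and 680.5, 676 and 538 CPM in controls. Whether the RiboMinus and polyA differences differ was not tested. Without 1 cKO female at a time, the difference lay between 1.36 and 1.62 for Nup58 and between 1.41 and 1.47 for Ahctf1. It lay between 1.09 and 1.46 for Gle1, 0.92 and 1.31 for Ndc1 and -1.15 and -1.01 for Tpr. The split of higher and lower calls moved with the cKO female left out. The fit of the 2 compared groups alone called 2, Ahctf1 and Nup58, against 4.27% higher and 3.27% lower over all genes.

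**Figure D5:**
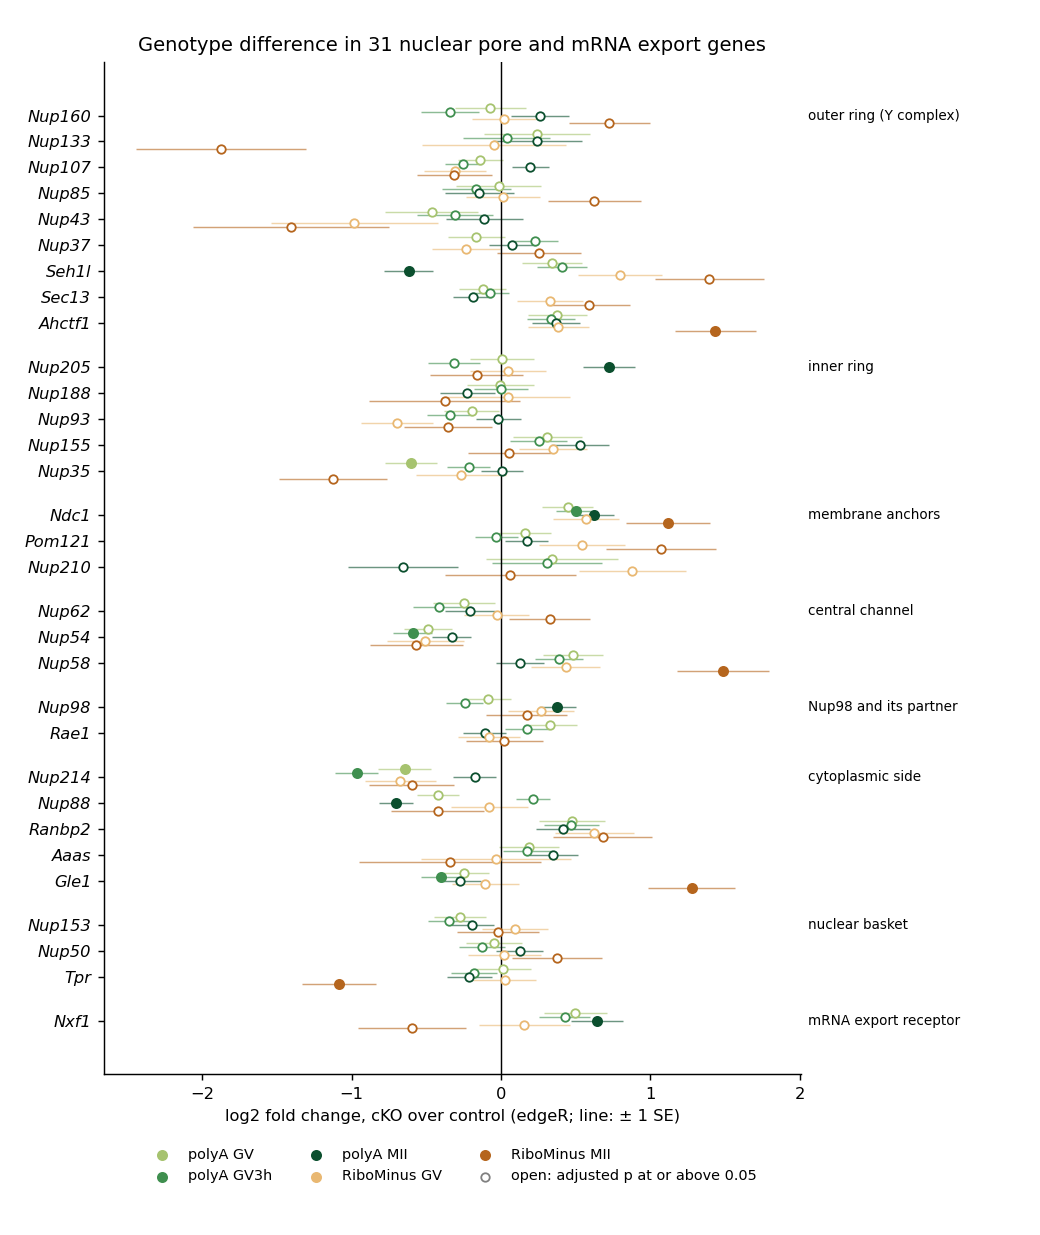
Log2 fold change of cKO over control (x axis, line ± 1 SE) of each of the 31 genes, grouped by role, in 3 polyA and 2 RiboMinus comparisons; filled points had an edgeR adjusted p under 0.05. In all 5 comparisons Ndc1, Ahctf1, Ranbp2, Nup58 and Nup155 lie right of 0 and Nup214, Nup54, Nup43 and Nup93 left of it, and most points of the other genes are open.

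After 3 hours in culture no change of a polyA level was called. From GV to GV3h 0 members were called in controls, where 0% of all genes were called, and 0 in cKO oocytes, also 0%. The members' log2 changes lay between -0.25 and 0.19 in controls and between -0.28 and 0.52 in cKO oocytes. At an unadjusted p under 0.05 there were 0 members in controls and 1 in cKO oocytes, and over all genes 425 and 373. DESeq2 called 0 and 1 members. That 1 member was Nup88, named after its value was seen, which went from 184 and 174 CPM to 240.5, 287 and 242 CPM in cKO females.

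Other genes of nuclear transport, listed by function, were called in both directions between polyA GV and MII. Of 17 TREX and cap-binding factors tested, which load export factors on mRNA, 6 were higher and 6 lower in control eggs, and 8 and 8 in cKO eggs. For these and the next lists 16.8% of all genes were higher and 25.7% lower in control eggs, and 18.1% and 26.6% in cKO eggs. The median change of this list was -0.03 in controls and -0.45 in cKO oocytes. Ddx39b, the helicase of TREX, fell by 3.66 in controls on the log2 scale and Sarnp, another TREX protein, rose by 2.13. TREX-2 and export receptor cofactors had 6 higher and 3 lower of 11 in controls and 7 and 2 in cKO oocytes, with medians of 0.53 and 0.68. In the Ran cycle, which sets the direction of transport, 1 of 7 was higher and 4 lower in control eggs. Rcc1, the chromatin-bound exchange factor for Ran, was the one that rose, by 1.59 ± 0.21. Importins, the import receptors, had 2 of 17 higher and 4 lower in controls and 3 and 8 in cKO oocytes. Exportins had 0 of 7 higher and 1 lower in controls, and 0 and 2 in cKO oocytes. Of the 4 other nucleoporins tested, 1 (Nup42, a partner of Gle1) was higher in control eggs, by 1.47 ± 0.36.

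Some genes of these lists differed between genotypes. Ncbp1, the large subunit of the nuclear cap-binding complex, was higher in cKO oocytes by 2.11 ± 0.53 at polyA GV and by 2.67 ± 0.45 at GV3h. Srrt, which bridges the cap-binding complex to RNA decay and export, was higher by 1.35 ± 0.24 and 1.26 ± 0.20. Of the 17 TREX and cap-binding factors, 2, 5 and 3 were called higher at polyA GV, GV3h and MII and 0 lower in each, against 3.47%, 12.5% and 11.9% higher over all genes. At RiboMinus MII 4 of 17 were higher and 0 lower, against 3.61% and 3.69% over all genes. The Ran cycle, exportin and other nucleoporin lists also had 0 lower in these 4 comparisons, with 0, 1 and 1 of 7, 1, 2 and 1 of 7 and 1, 1 and 1 of 4 higher in polyA. Both remaining lists held lower calls. Of 11 TREX-2 and cofactor genes, 0 were higher and 3 lower at GV3h, and 4 higher and 2 lower at polyA MII. Of 17 importins, 1, 4 and 2 were higher and 1, 2 and 1 lower at polyA GV, GV3h and MII. Over all genes 3.91%, 12.7% and 6.99% were lower in these comparisons. Tnpo3, an importin for splicing factors, was higher by 2.07 ± 0.41 at GV and 2.43 ± 0.34 at GV3h. Ddx39b was higher in cKO eggs by 1.72 ± 0.17, and its GV to MII interaction was called (1.55 ± 0.25, edgeR adjusted p 0.00766).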

How the data were processed

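Each oocyte was 1 library. The values deposited by the authors are raw counts for each Ensembl gene ID, not normalized, with 5 summary lines that were left out. Reads outside genes or ambiguous made up 8.43% to 17.0% of a library. Per the submitters' processing notes the tools were cutadapt 2.5, STAR 2.7.2a, SAMtools 1.9, HTSeq 0.9.1 and DESeq2 1.24.0, with mm10; the annotation release and strand setting are not given in the sources used here. The 22 rRNA files were not used.

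Counts were summed per female, since oocytes of 1 female are not independent. All females of a library type were fitted together with edgeR 4.0.16 in R 4.3.3 (filterByExpr, TMM, glmQLFit, glmQLFTest, two-sided), with Benjamini-Hochberg adjustment over all genes tested. A gene was called at an adjusted p under 0.05. The SE is the log2 fold change over the square root of F. The polyA fit was also run on simulated counts with known changes in control eggs. The fits with RiboMinus females were not run in that way. Alternatives used DESeq2 1.42.0, limma 3.58.1 and other settings. Values are given for each female for members called alike in at least 3 genotype comparisons, the 5 largest called changes of each, and the highest per coding kb of each role. The members and gene lists were chosen with earlier results of these data known. Symbols came from a supplied table, and Nup58 from a RefSeq synonym. Tables used pandas and figures matplotlib.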

Additional observations from a re-analysis of the deposited data

Results flagged for a closer look

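Each of the 31 genes was looked at in the 6 groups of 4 to 10 oocytes. In 15 of these 186 sets of values (8.06%) 1 oocyte lay far from the others. Chance gives about 1 in 20, and the sets of a group share their oocytes. In polyA control eggs 5 of these were oocyte V836_2. It held 418.6 CPM of Nup107 (others 238 to 306), 875.5 of Nup85 (309.9 to 455) and 338.2 of Rae1 (176 to 240.5), and lay below the others for Nup153 (159 against 262 to 330) and Nup50 (47.29 against 107 to 157). In RiboMinus control GV oocytes, V1132_4 was above the others for Pom121 (434.8 CPM), Nup98 (1445), Nup214 (1455) and Nup153 (419), and V1133_1 for Ranbp2 (168.8). In RiboMinus cKO eggs V1166_2 was low for Nup37 (27.22 CPM) and high for Tpr (183.3), and V1166_1 was high for Nup35 (17.97). The other 2 were Nup188 in the polyA control GV oocyte V856_2 (159 CPM) and Nup54 in the RiboMinus cKO GV oocyte V1126_3 (145.2).

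The GV to MII change differed between polyA and RiboMinus libraries, by a test of the difference itself, for 20 members in each genotype. In controls the log2 difference was 1.264 for Nup107, 2.353 for Nup85, 1.705 for Nup37, 3.503 for Seh1l, 1.757 for Sec13 and 2.709 for Ahctf1 in the outer ring. It was 1.588 for Nup93 and 1.304 for Nup35 in the inner ring, and 1.315 for Ndc1 and 1.393 for Pom121 among the anchors. In the channel it was 1.896 for Nup62, 1.197 for Nup54, 2.055 for Nup58 and 1.174 for Nup98. At the 2 faces it was 1.301 for Nup88, 1.477 for Ranbp2, 3.036 for Gle1, 0.83 for Nup153 and 1.776 for Tpr, and for Nxf1 it was -1.198. The calls of Nup153 and Nxf1 were each lost without 6 of the 7 females that could be left out, and that of Nup153 in 3 of 7 other settings.

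In cKO oocytes the difference was 1.618 for Nup107, 1.619 for Nup85, 1.469 for Nup37, 1.963 for Seh1l, 1.446 for Sec13 and 1.664 for Ahctf1. The inner ring values were 1.333 for Nup205, 1.437 for Nup93 and 2.785 for Nup35, and the anchors had 0.9468 for Ndc1 and 0.8939 for Pom121. Pom121 lost the call without 5 of the 9 females (0.58 to 1.30) and in 5 of 7 other settings, and Ndc1 in 3 of 7. In the channel it was 1.591 for Nup62, 1.434 for Nup54 and 1.75 for Nup98. At the 2 faces it was 1.377 for Nup88, 1.38 for Ranbp2, 1.778 for Aaas, 1.642 for Gle1, 1.042 for Nup153 and 2.678 for Tpr. The Aaas difference lay between 1.12 and 3.02 when 1 female was left out. Its call and those of Nup205 and Nup153 were lost with library totals and with the compared groups alone. The 2 library types differ in priming, amplification and females, and the part of these in the differences was not tested.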

How the results depend on the processing

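Counts of called members are compared here with those of the alternatives. No paired analysis was possible because no female was in more than 1 group. In polyA the GV genotype count of 2 was 5 with DESeq2, 1 with its size factors, 0 with the compared groups alone or no filter, 13 with oocytes as replicates and 8 with voom and the female as a random block. The GV3h count of 4 was 8 with DESeq2, the compared groups or voom, 11 with library totals and 16 with oocytes. The MII count of 6 was 14 with oocytes and 10 with voom. The polyA interaction count of 0 was 1 with DESeq2, library totals or no filter, 7 with oocytes and 2 with voom. The cKO change from GV to GV3h, 0, was 1 with DESeq2, oocytes or voom. In RiboMinus the GV genotype count of 0 was 12 with oocytes and 3 with voom. The MII count of 5 was 10 with DESeq2, 2 with the compared groups, 9 with no filter, 11 with oocytes and 12 with voom. The control stage count of 0 was 5 with DESeq2, 11 with the compared groups, 4 with no filter or voom and 13 with oocytes. The cKO stage count of 2 was 4 with DESeq2, no filter or oocytes, 0 with the compared groups, 1 with library totals and 7 with voom. The RiboMinus interaction count of 0 was 1 with DESeq2, 2 with no filter, 6 with oocytes and 4 with voom. The cKO library-type count of 20 was 12 with library totals. Oocytes as replicates ignore the shared female, and called 22.0% of all genes higher and 18.5% lower between genotypes in the polyA GV libraries. The GV3h comparison had 29.4% and 26.1%, polyA MII 19.0% and 18.6%, RiboMinus GV 21.2% and 16.5%, and RiboMinus MII 13.9% and 9.78%. Voom called 9.37% and 10.8%, 16.8% and 16.6%, 13.8% and 8.59%, 3.30% and 5.02%, and 11.5% and 13.3% in the same order. DESeq2 called 7.58% and 6.60%, 15.4% and 14.2%, 14.3% and 10.4%, 4.65% and 1.54%, and 12.8% and 7.80%. The compared groups alone called 0.00555% and 0% at polyA GV, 20.95% and 18.7% at GV3h and 4.27% and 3.27% at RiboMinus MII. They called 13.96% and 13.93% in the RiboMinus control stage change and 0% in the cKO one. No filter called 3.74% and 2.2% at polyA GV and 6.39% and 5.51% at RiboMinus MII. With DESeq2 size factors the polyA GV shares were 3.78% and 3.62%. In the polyA interaction DESeq2 called 3.40% and 2.43% of all genes, library totals 1.16% and 0.525%, no filter 1.55% and 1.39%, oocytes 9.55% and 5.17% and voom 3.91% and 0.907%. In the cKO change to GV3h these shares were at most 0.371%. In the RiboMinus control stage change no filter called 1.34% and 1.75% and voom 4.37% and 2.63%. In the cKO one DESeq2 called 5.15% and 6.35%, no filter 3.18% and 4.34% and library totals 0.35% and 0.936%. In the RiboMinus interaction no filter called 1.67% and 1.21%, oocytes 7.85% and 7.00% and voom 1.95% and 2.41%. Library totals called 4.44% and 17.0% in the cKO library-type comparison. The member counts are to be read against those shares. The cause of the other moves was not tested.

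Leaving out 1 female at a time gave 2 to 5 called members at GV3h and 4 to 7 at MII between polyA genotypes. Over all genes 7.361% to 12.57% were then higher and 8.194% to 12.3% lower at GV3h. At MII 8.996% to 10.29% were higher and 4.271% to 6.025% lower. At polyA GV such a fit leaves 1 female in a group, so its calls are not counted here. The log2 difference there lay between -0.84 and -0.41 for Nup214 and between -0.68 and -0.51 for Nup35. The RiboMinus MII genotype and RiboMinus cKO stage fits without 1 cKO female also leave 1 female in a group. The ranges of their log2 changes are given above for the called members. Without 1 polyA MII female at a time, the polyA stage counts of 24 and 23 were 23 to 24 in controls and 20 to 21 in cKO oocytes. Over all genes 14.93% to 16.03% were then higher and 23.8% to 24.24% lower in controls. In cKO oocytes 16.52% to 16.88% were higher and 22.73% to 24.48% lower. The cKO library-type count was then 19 to 20, against 10.07% to 11.16% of all genes above 0 and 7.751% to 9.197% below. No alternative reversed the sign of the 79 called changes followed for the members given by female. RiboMinus control eggs come from 1 female, which could not be left out.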
